A study of Sus scrofa with 8 samples.

Results

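BAG3 and 4 small heat shock protein genes, HSPB8, HSPB1, HSPB6 and CRYAB, were followed in the longissimus dorsi, a long muscle of the back, of 2 pig breeds. Their probe sets were chosen by the gene symbol of the platform annotation: a probe set had to carry exactly 1 symbol and that symbol had to be a member's. This gave 5 of the 6765 genes named on the array and 8 of its 24123 probe sets, 2 each for BAG3, HSPB6 and CRYAB and 1 each for HSPB8 and HSPB1. The genes themselves were selected from the breed comparison of these same arrays, in which BAG3 and HSPB8 had already been seen to be lower in Korean native pigs. The breed differences of the 5 genes and the covariation of BAG3 with HSPB8 are therefore descriptions, given with errors and without a test.

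One group was 4 Korean native pigs of 7 months and the other 4 Yorkshire pigs of 6 months, kept under the same conditions per the labels. Breed cannot be told apart from age in this design. Each animal gave 1 one-colour Affymetrix array, made from total RNA with biotin as the label, and no treatment was named. The series was made to find genes that differ in expression between the muscles of the breeds.

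BAG3 is a co-chaperone that joins the chaperone HSP70 to small heat shock proteins, above all to HSPB8. In striated muscle the complex of BAG3, HSPB8, HSP70 and the ubiquitin ligase CHIP (gene STUB1) recognises damaged filamin and other Z-disc proteins and sends them to autophagy, a route called chaperone-assisted selective autophagy. The small heat shock proteins bind unfolding proteins without using ATP. HSPB1, HSPB6 and CRYAB are abundant in muscle, where they associate with actin, desmin and the Z-disc, and several genes of this group are induced by heat shock factor 1.

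Median signals lay between 135.8 and 185.3. The gap between 3' and 5' probe sets of the control transcripts for actin, EF1A and GAPDH, which widens when RNA is degraded or copied incompletely, was 3.33 log2 units on Korean native pig 1 and 3.03 on Yorkshire 3, against 0.87 to 1.73 on the other arrays. Below, these are called the wide-gap arrays. Hybridisation controls were bright on replicates 1 and 3 of both breeds (13.42 to 13.70 log2 units) and dim on replicates 2 and 4 (12.50 to 12.81). Of 8 skeletal muscle markers 6 were measured (CKM, MYLPF, TNNT3, TNNC2, MYH7 and DES), and all 6 lay above the negative controls, whose 95th percentile was a signal of 91.5. The tissue was bulk muscle, so fewer cells of a type and less RNA per cell cannot be told apart. Yorkshire 2 stood apart for the members. Of the 5 genes, 4 had their lowest Yorkshire signal on this array, and HSPB1 and CRYAB had their lowest signal of all 8 arrays there.

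BAG3 signal was lower in Korean native pigs on both of its probe sets, by 2.54-fold and 2.08-fold. On the brighter probe set (Ssc.13649.1.S1_at) the signals were 3146, 4603, 2453 and 1561 in Korean native pigs 1 to 4. In Yorkshire pigs 1 to 4 they were 12528, 2762, 8998 and 7688. Yorkshire 1, 3 and 4 lay above every Korean native pig, whereas Yorkshire 2 fell between Korean native pigs 1 and 3, so the breeds overlapped through that single animal. The mean signal was 2941 ± 1284 against 7994 ± 4043 (SD, n = 4). The log2 difference, Korean native pig minus Yorkshire on the scale log2(signal + 32), was -1.35 (SE 0.43, 95% interval -2.29 to -0.41). Among the 5331 genes tested it was the 9th lowest difference, with a median over all genes of -0.0027. Without Yorkshire 2 the difference was -1.79 and without Yorkshire 1 it was -1.07. Among arrays with bright hybridisation controls the difference was -1.92, and among those with dim controls -0.77, each from 2 animals per breed. The bright arrays hold both wide-gap arrays, and the dim ones hold Yorkshire 2. Hybridisation brightness therefore cannot be told apart from these in such splits, here and below.

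The second BAG3 probe set (Ssc.13649.2.S1_a_at) was dimmer and ranked the animals almost alike. Its signals were 407.6, 658.6, 359.5 and 160.4 in Korean native pigs 1 to 4 and 1150, 542.6, 691.0 and 844.7 in Yorkshire pigs 1 to 4. Korean native pig 4 was the lowest and Yorkshire 1 the highest on both probe sets, and the overlap here was that of Korean native pig 2 with Yorkshire 2. The means were 396.5 ± 204.9 and 807.1 ± 259.8 (SD, n = 4), and the log2 difference was -1.06 (SE 0.36, 95% interval -1.84 to -0.27). Over the 8 arrays the probe sets correlated with r = 0.92 (rho = 0.95), and with r = 0.84 once the breed means were subtracted. With single arrays left out the difference on the second probe set ran from -1.33 (without Korean native pig 2) to -0.72 (without Korean native pig 4). It was -1.16 among the bright arrays and -0.96 among the dim ones, values closer to each other than the -1.92 and -0.77 of the brighter probe set.

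HSPB8, the small heat shock protein that BAG3 binds, differed in the same direction by 1.61-fold. Its signals were 6361, 13313, 9353 and 10943 in Korean native pigs 1 to 4, and 19089, 9787, 12013 and 26018 in Yorkshire pigs 1 to 4. Yorkshire 1 and 4 lay above every Korean native pig, while Yorkshire 2 and 3 lay inside the range of that breed. The means were 9992 ± 2917 and 16727 ± 7355 (SD, n = 4). The log2 difference was -0.69 (SE 0.31, 95% interval -1.37 to -0.0044), the 110th lowest among the tested genes. Leaving out Yorkshire 4 gave -0.44. The bright arrays gave -0.97 and the dim ones -0.40.

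**Figure D1:**
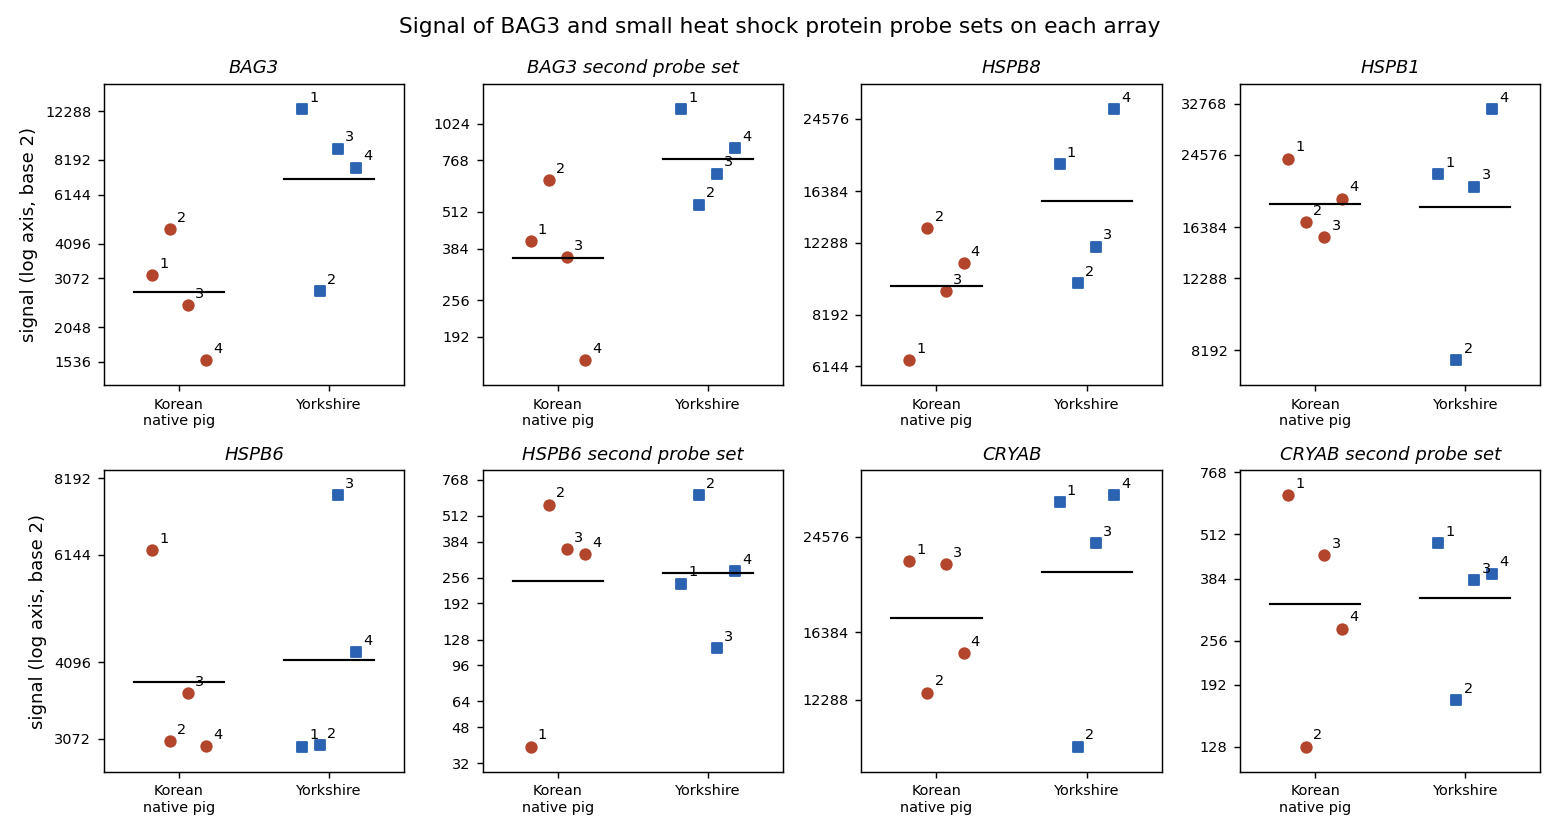
Signal of the 8 member probe sets on each array, on a logarithmic axis, with Korean native pigs as circles, Yorkshire pigs as squares, replicate numbers beside the points and the mean of log2(signal + 32) of each breed as a line. BAG3 signals of Yorkshire 1, 3 and 4 (7688 to 12528) lie above all Korean native pigs (1561 to 4603), and Yorkshire 2 (2762) lies among them.

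HSPB1, also known as HSP27, showed almost the same mean in both breeds. Korean native pigs 1 to 4 had signals of 24090, 16866, 15460 and 19231, and Yorkshire pigs 1 to 4 had 22070, 7760, 20582 and 31877. The 4 Korean native pigs fell within a 1.56-fold range and inside the range of the Yorkshire pigs, which spanned 4.11-fold between Yorkshire 2 and Yorkshire 4. The log2 difference was 0.03 (SE 0.35, 95% interval -0.75 to 0.80). The sign turned when Yorkshire 2 was left out (-0.39), when Korean native pig 1 was (-0.10), among the bright arrays (-0.14) and without the wide-gap arrays (-0.04). Leaving out Yorkshire 4 gave 0.29.

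CRYAB, which encodes alpha B-crystallin, lay slightly lower in Korean native pigs, by less than the spread between animals. Signals were 22159, 12655, 21890 and 14999 in Korean native pigs 1 to 4 and 28514, 10054, 23965 and 29316 in Yorkshire pigs 1 to 4. As with BAG3, Yorkshire 1, 3 and 4 exceeded every Korean native pig and Yorkshire 2 did not, here being the lowest of all animals. The log2 difference was -0.28 (SE 0.33, 95% interval -0.999 to 0.435). Leaving out Yorkshire 2 gave -0.64, while leaving out Yorkshire 4, Yorkshire 1 or Korean native pig 2 gave -0.13, -0.14 and -0.13.

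The second probe set annotated as CRYAB (Ssc.19588.2.A1_at) carried the same cluster number as that of HSPB2 (Ssc.19588.1.S1_at), the gene next to CRYAB in the Sscrofa11.1 gene table. Its signals were 660.3, 128.1, 447.4 and 276.9 in Korean native pigs and 484.8, 173.3, 379.5 and 396.7 in Yorkshire pigs, again in the order 1 to 4. It correlated with the brighter CRYAB probe set at r = 0.83 (rho = 0.67, n = 8 arrays; 0.48 without Korean native pig 2 and Yorkshire 2) and with HSPB2 at r = -0.07 (rho = -0.05; -0.93 without Korean native pig 1 and Yorkshire 4). The log2 difference was -0.05 (SE 0.43). With single arrays left out it ran from -0.36 (Korean native pig 1) to 0.34 (Korean native pig 2), with -0.33 without Yorkshire 2, -0.19 without Korean native pig 3 and values from 0.0038 to 0.11 without Korean native pig 4 or any of Yorkshire 1, 3 and 4. It was 0.32 among the bright arrays, -0.42 among the dim ones and -0.31 without the wide-gap arrays. Which of the neighbouring genes this probe set measures is uncertain, so its values stand apart from those of CRYAB.

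HSPB6, also known as HSP20, had no clear breed difference and its probe sets ran against each other. The brighter one (Ssc.13823.1.A1_at) had signals of 6248, 3046, 3645 and 2990 in Korean native pigs 1 to 4 and 2981, 3000, 7676 and 4259 in Yorkshire pigs 1 to 4. The highest signals were those of Korean native pig 1 and Yorkshire 3, the wide-gap arrays. The second one (Ssc.13823.2.S1_at) had 38.6, 580.9, 352.8 and 332.8 in Korean native pigs and 240.0, 643.8, 116.0 and 275.4 in Yorkshire pigs. Here those arrays were the lowest, and 38.6 lay below the 91.5 of the negative controls. Between the HSPB6 probe sets r was -0.82 (rho = -0.48), or -0.39 without these 2 arrays.

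The log2 breed difference of HSPB6 was -0.12 on both probe sets (SE 0.32 and 0.62). On the brighter one, leaving out single arrays moved it between -0.36 (Korean native pig 1) and 0.17 (Yorkshire 3), and leaving out both of these wide-gap arrays gave -0.07. On the second, leaving out single arrays moved it between -0.49 (Korean native pig 2) and 0.55 (Korean native pig 1), with -0.46 for Yorkshire 3 and 0.27 for Yorkshire 2. The remaining Korean native pigs, 3 and 4, gave -0.27 and -0.24 when left out. Leaving out both wide-gap arrays gave 0.20, and the bright and dim arrays gave -0.28 and 0.05.

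Over the 8 arrays the second HSPB6 probe set had r = -0.95 (rho = -0.88) with the gap between 3' and 5' controls, and -0.79 without Korean native pig 1 and Yorkshire 3. The brighter HSPB6 probe set had r = 0.87 (rho = 0.40), and -0.03 without these arrays, so that relation rested on them. For CRYAB it was 0.46 (rho = 0.52; 0.71 without them), and for the second probe set annotated as CRYAB, of uncertain target, 0.68 (rho = 0.81; 0.85 without them). For BAG3 and HSPB8 it was 0.23 and -0.44 (rho = 0.24 and -0.36; 0.40 and 0.21 without them). These correlations are given as descriptions of 8 arrays, and the part of RNA quality in the breed differences was not tested. With the wide-gap arrays left out the log2 difference was -1.29 for BAG3 and -0.61 for HSPB8, against -1.35 and -0.69 from all arrays.

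**Figure D2:**
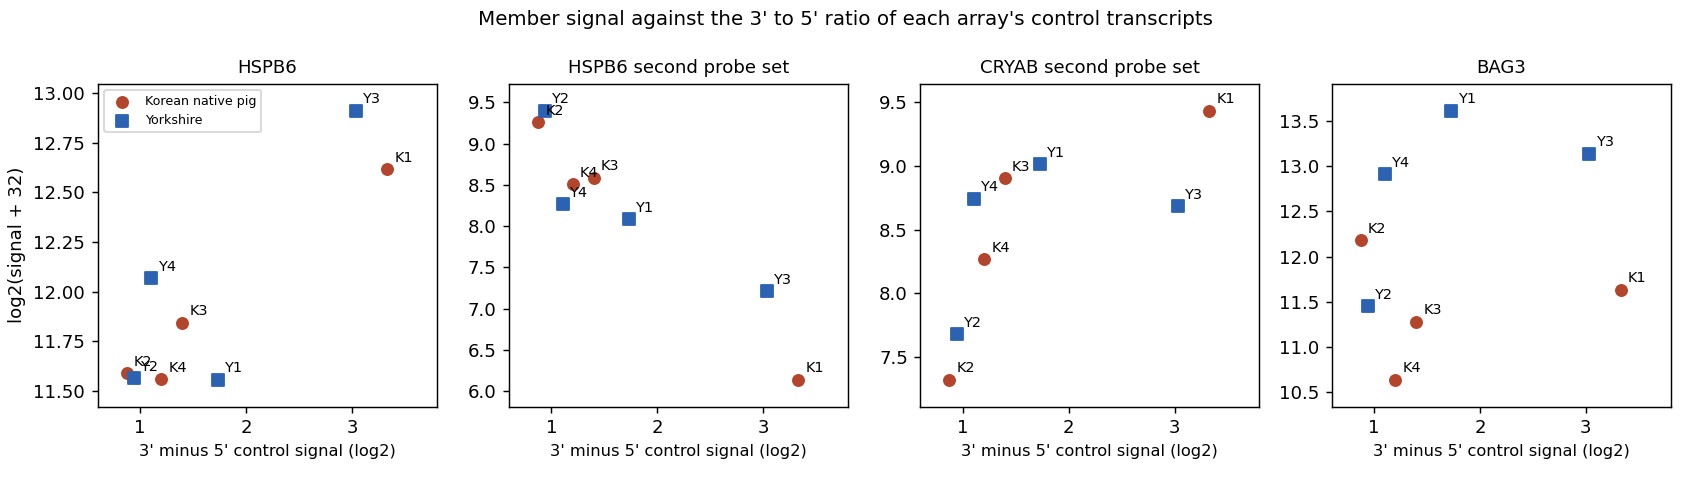
The log2(signal + 32) of 4 member probe sets against the difference between 3' and 5' control signal of each array in log2 units, with Korean native pigs (K) as circles and Yorkshire pigs (Y) as squares. K1 and Y3, at 3.33 and 3.03, have the highest signal of the brighter HSPB6 probe set and the lowest of the second, while the BAG3 signals of K1 and Y3 lie inside the range of the other arrays.

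Across all 14399 probe sets tested with limma, 0 passed an adjusted p of 0.05, or 0% (570 had an unadjusted p under 0.05; no other tool was run). All 8 member probe sets were bright enough to be tested, and 0 of them passed. For 0 of the 8 did the values of one breed all lie above those of the other, which was so for 2.56% of all probe sets tested. These counts are printed beside each other as a description, since the genes were picked from this contrast. On the brighter probe sets of BAG3 and CRYAB, Yorkshire 2 was the only animal through which the breeds overlapped.

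The animals with high BAG3 tended to have high HSPB8. Pearson's r of the log2 values was 0.67 and Spearman's rho 0.67 over 8 animals, with r between 0.58 (without Yorkshire 1) and 0.74 (without Korean native pig 4) when single arrays were left out. Without Korean native pig 4 and Yorkshire 1, the animals farthest from the BAG3 median, r was 0.69. With the second BAG3 probe set r was 0.61. By r with BAG3, HSPB8 was 141st of the 5330 other tested genes, with 2.65% at or above it, where the median gene had r = -0.02 and the 95th percentile was 0.58. No p-value is given, because the pair was chosen with results of these arrays known.

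The relation was weaker inside the breeds. After each breed's mean was subtracted r was 0.45 (rho = 0.43), and HSPB8 was 588th of the 5330 genes. Leaving out Yorkshire 2 after this subtraction gave r = 0.11. The subtracted Yorkshire mean still included that animal, so 0.11 is not an r within breeds of the remaining animals. An r with that mean retaken was not computed. Inside the Korean native pigs the order by BAG3 was 2, 1, 3 and 4 and by HSPB8 it was 2, 4, 3 and 1, so animals 1 and 4 changed places. In the Yorkshire pigs the order by BAG3 was 1, 3, 4 and 2 and by HSPB8 4, 1, 3 and 2, with Yorkshire 2 lowest for both genes. Each breed has too few animals for a correlation of its own.

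The relation as measured was closer with the array measures taken into account. Without the wide-gap arrays, Korean native pig 1 and Yorkshire 3, r was 0.83, and with the means of the bright and the dim arrays subtracted it was 0.85. Both steps treat the breeds alike and leave in the breed difference with which the pair was chosen. These values therefore stand beside the r from all arrays and not beside that within breeds. Korean native pig 1 had the lowest HSPB8 signal of all animals, yet its BAG3 signal was the second highest of its breed. The part of these array measures in the covariation was not tested.

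**Figure D3:**
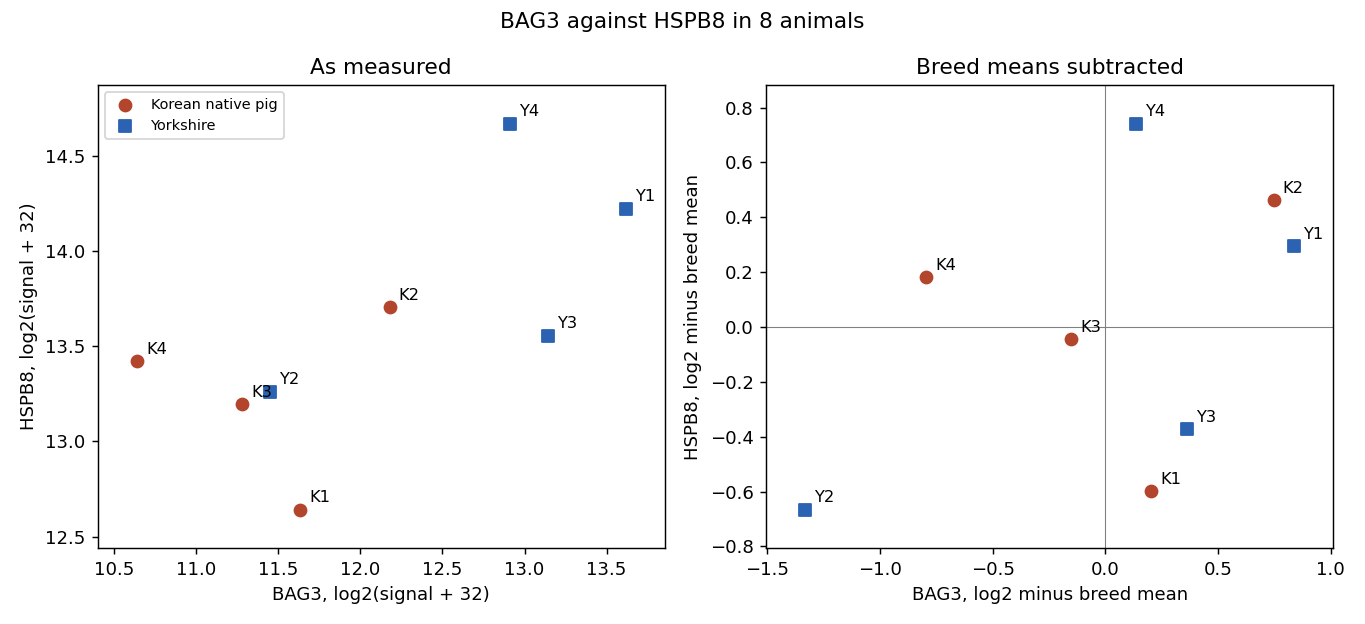
HSPB8 against BAG3 as log2(signal + 32) in 8 animals, as measured on the left and with the mean of each breed subtracted on the right, with Korean native pigs (K) as circles and Yorkshire pigs (Y) as squares. On the left r is 0.67, and on the right, where Y2 lies alone at the lower left, it is 0.45.

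Among the other pairs of the 5 genes the closest was HSPB1 with CRYAB at r = 0.82 (rho = 0.86), or 0.85 within breeds, and 0.49 without Yorkshire 2 and Yorkshire 4. BAG3 had r = 0.62 (rho = 0.67) with CRYAB, or 0.49 without its 2 farthest animals, and r = 0.45 (rho = 0.55) with HSPB1. With breed means subtracted BAG3 had r = 0.65 with HSPB1 and 0.62 with CRYAB. Leaving out Yorkshire 2 afterwards took both to 0.11, with the subtracted Yorkshire mean still including that animal. The lowest r were those of HSPB6 with BAG3, at 0.28 (rho = 0.17), and with HSPB8, at -0.25 (rho = -0.21). With HSPB1 and CRYAB HSPB6 had r = 0.42 (rho = 0.33) and 0.47 (rho = 0.31). Of the 10 pairs among the 5 genes 9 had a positive r, both as measured and within breeds. The within-breed values of BAG3 with HSPB8, HSPB1 and CRYAB thus leaned on Yorkshire 2, in which these genes were low together. For HSPB1 with CRYAB r was 0.56 with Yorkshire 2 left out in the same way. Breed means were not retaken for the values without Yorkshire 2, so these are not r within breeds of the remaining animals.

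**Figure D4:**
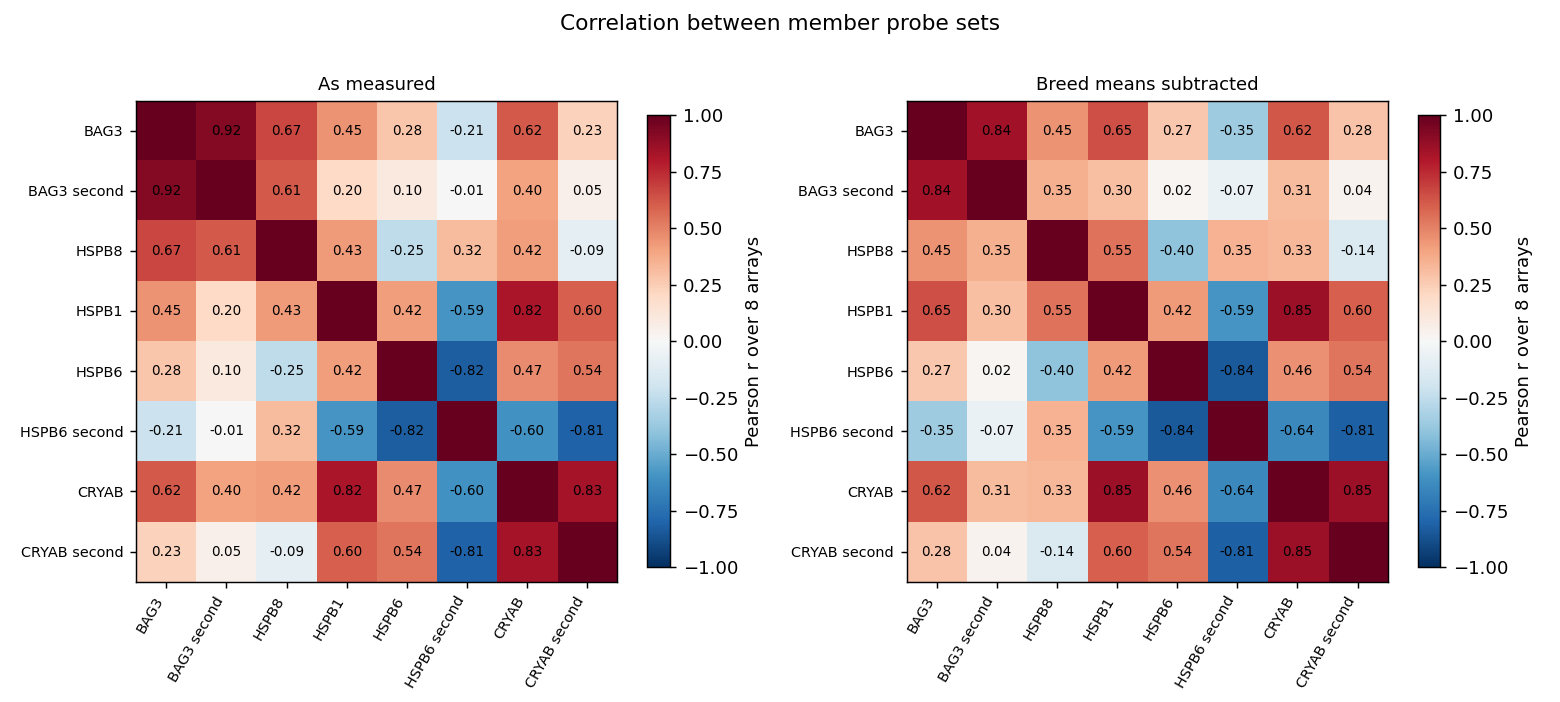
Pearson's r between the 8 member probe sets over 8 arrays, as measured on the left and with breed means subtracted on the right, from blue at -1 to red at 1. The strongest positive cells on the left are the BAG3 probe sets (0.92), the CRYAB probe sets (0.83) and the pair of HSPB1 and CRYAB (0.82), and the second HSPB6 probe set is negative with HSPB1, HSPB6 and both CRYAB probe sets.

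The gene most like BAG3 by Pearson's r, of the 5330 others tested, was DNAJA4, an HSP40 co-chaperone that stimulates HSP70. It had r = 0.94 (rho = 0.95), 0.97 without Yorkshire 1 and Korean native pig 3, and 0.87 with breed means subtracted. DNAJA4 signals were 583.8, 1304, 305.9 and 440.9 in Korean native pigs 1 to 4 and 2488, 751.5, 2019 and 1773 in Yorkshire pigs 1 to 4. As with BAG3, Yorkshire 1, 3 and 4 lay above every Korean native pig and Yorkshire 2 did not. The log2 difference was -1.45 (SE 0.43, 95% interval -2.39 to -0.51), a 2.73-fold lower level in Korean native pigs that did not pass (limma adjusted p = 0.999). The bright arrays gave -2.32 and the dim ones -0.58, and leaving out Yorkshire 2 gave -1.81. With HSPB8 its r was 0.71 (rho = 0.76). A further DNAJA4 probe set had a mean signal of 25.3, under the 91.5 of the negative controls, and was not tested.

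The next genes by r with BAG3 were SARNP (0.93), an RNA-binding protein of mRNA export, PMEPA1 (0.93), a membrane protein that dampens TGF-beta signalling, SAE1 (0.91), a subunit of the SUMO-activating enzyme, and KRR1 (0.88), a factor of ribosome assembly. Within breeds the highest were ZRANB1 (0.96), a deubiquitinating enzyme, WDR77 (0.95), SAE1 (0.92), the chemokine gene AMCF-II (0.92) and SARNP (0.90). For HSPB8 they were SLC7A7 (0.96), an amino acid transporter, VCL (0.95), which encodes vinculin, ARMCX3 (0.93), EIF2S1 (0.92), the alpha subunit of initiation factor eIF2, and TAB1 (0.92). Within breeds they were GSE1 (0.96), SLC7A7 (0.94), VCL (0.93), RNF10 (0.93) and OGDH (0.92). SARNP and SAE1 were in both BAG3 sets, and SLC7A7 and VCL in both HSPB8 sets. These are the highest of 5330 values from 8 arrays and are given as names of likeness only.

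Lists of related genes were read against all 5331 tested genes, whose median difference was -0.0027 with 50.4% below 0, and 0 members of any list passed in either direction. Each of the named genes below had a limma adjusted p of 0.999. Of the other small heat shock proteins 4 of 7 were tested, with a median of -0.12 and 2 below 0. HSPB7, a heart and muscle form that binds filamin, had signals of 1616, 1205, 1124 and 1052 in Korean native pigs 1 to 4 and 2635, 766.7, 3927 and 2051 in Yorkshire pigs 1 to 4. Yorkshire 2 was again the lowest, and the other 3 Yorkshire pigs lay above all Korean native pigs. Its log2 difference was -0.70 (SE 0.39). Leaving out Yorkshire 2 gave -1.15, leaving out Yorkshire 3 gave -0.38, and the bright and dim arrays gave -1.23 and -0.16. Its r with BAG3 was 0.83 (rho = 0.88), or 0.68 without Yorkshire 1 and Yorkshire 3.

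HSPB2 was at 0.01 and HSPB3 at -0.24. HSPB11, which despite its name serves transport in cilia, was at 0.46 (SE 0.22). Its signals of 326.3 to 393.5 in Korean native pigs all lay above those of 194.2 to 303.1 in Yorkshire pigs, as was so in one direction or the other for 2.56% of probe sets. Of the BAG family 3 of 5 were tested, with BAG1 at 0.16, BAG5 at -0.39 and BAG6 at -0.10. Other probe sets of BAG6 were at 0.24 and 1.38, the latter with a mean signal of 68.1, under the 91.5 of the negative controls.

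Partners of chaperone-assisted selective autophagy were spread evenly around 0. Of 18 genes 14 were tested, 7 above and 7 below 0, with a median of -0.0024. SQSTM1, the autophagy receptor p62, was at 0.37 (SE 0.28), MAP1LC3B, which coats the autophagosome, at 0.27 (another probe set -0.01) and the lysosomal membrane gene LAMP2 at -0.23 (other probe sets 0.40, 0.68 and -0.01). DNAJB6, an HSP40 protein of the Z-disc, was at 0.36, and its 3 other probe sets were at -0.05, -0.05 and -0.15. The r with BAG3 was 0.10 for SQSTM1, -0.29 for MAP1LC3B, 0.32 for LAMP2 and 0.02 for DNAJB6 (n = 8 arrays). Over the 14 tested genes it ran from that of MAP1LC3B to 0.56 for the HSP70 gene HSPA8. For STUB1 it was 0.18, and 0.49 with HSPB8. The differences of HSPA8 and STUB1 were -0.09 (other HSPA8 probe sets -0.35, -0.17 and -0.03) and -0.03. HSPA8 and STUB1 were named after their values were seen.

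Genes of the Z-disc and its filaments, which include clients of this route, were mostly below 0: 11 of the 12 tested (of 18 listed), with a median of -0.22. The skeletal muscle markers, which share DES with this list, had a median of -0.31, and the part of muscle content in the list's values was not tested. Those of lowest p were CAPZB and CAPZA2, subunits of the actin-capping protein CapZ, at -0.85 (SE 0.45) and -0.32 (SE 0.21), the titin cap gene TCAP at -0.35 and the giant filament gene NEB at -0.25. Other CAPZB probe sets were at -0.35 and -0.72. CAPZA2 had r = 0.82 with BAG3, and TCAP 0.10. FLNC, the muscle filamin, was not among the tested genes.

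Heat shock factors and chaperones under their control split in both directions. Of 22 genes 15 were tested, 8 above and 7 below 0, with a median of 0.0016. DNAJA4 was the lowest of them. HSF2, a heat shock factor itself, was at -0.59 (SE 0.30) and had r = 0.61 with BAG3 and 0.76 with HSPB8. DNAJB1, the main heat-inducible HSP40, was at 0.77 (SE 0.36) and HSP90AB1, the constitutive HSP90, at 0.34 (SE 0.19). DNAJB1 had r = -0.38 with BAG3 and -0.74 with HSPB8. The 7 genes below 0 had r from 0.33 to 0.94 with BAG3, and the 8 above 0 from -0.38 to 0.33. These r hold the breed differences too. The HSP70 genes HSPA1A and HSPA1B were not among the tested genes.

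**Figure D5:**
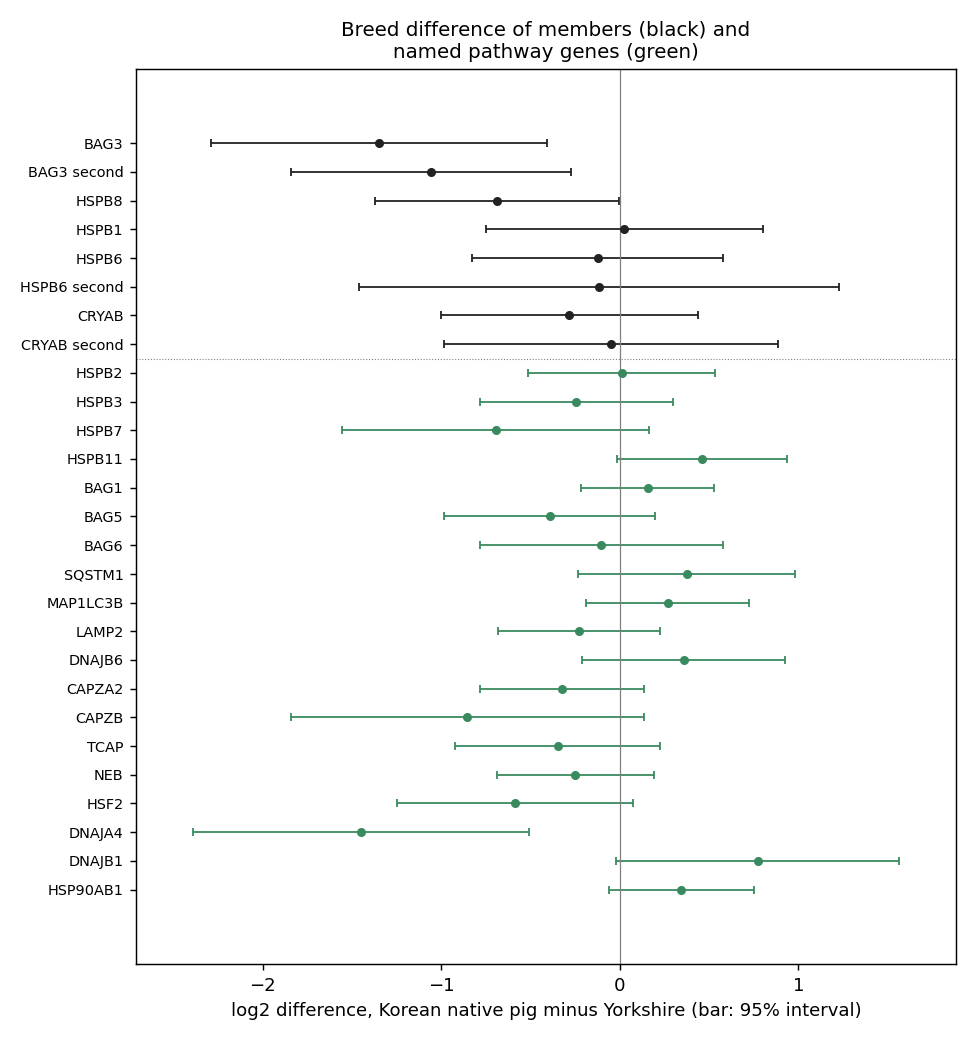
Log2 difference, Korean native pig minus Yorkshire, on the scale log2(signal + 32) with its 95% interval from the fit over 8 arrays, for the 8 member probe sets (black) and the genes named from the pathway lists (green). Both BAG3 probe sets (-1.35 and -1.06), HSPB8 (-0.69) and DNAJA4 (-1.45) lie lowest together with CAPZB (-0.85) and HSPB7 (-0.70). The members were chosen from this contrast, and 0 of the values shown passed the adjusted threshold.

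Other cell types were read from marker lists. The summed signal of the measured markers overlapped between the breeds for all 8 lists. The median log2 difference over a list's markers, Korean native pig minus Yorkshire, was nevertheless -0.31 for skeletal muscle, -0.35 for smooth muscle and pericytes, -0.34 for fibroblasts and matrix, -0.49 for adipocytes and 0.43 for nerve. For endothelium, leukocytes and red cells it was -0.07, 0.07 and 0.07. The first 4 of these medians have the sign of the BAG3 and HSPB8 differences, and each is larger in size than the -0.28 of CRYAB. Smooth muscle and pericyte markers, 6 of 8 measured, summed to 29456 to 33902 in Korean native pigs and 25557 to 39524 in Yorkshire pigs. Smooth muscle also contains HSPB1, HSPB6 and CRYAB. DES, which is on the skeletal muscle list too, made up much of these sums, at 15230 (Yorkshire 2) to 30301 (Yorkshire 4). The sums are therefore no measure of smooth muscle and pericytes alone. Skeletal muscle markers summed to 285728 to 443231 and 370188 to 594503, with r = 0.54 between log2 of the sum and BAG3. For fibroblasts and matrix, 5 of 6 measured, the ranges were 9762 to 16799 and 12832 to 22630, and for adipocytes, 4 of 6, they were 3404 to 5391 and 3296 to 11690. Endothelial markers, 6 of 6, ran from 3779 to 4654 and 3949 to 5792, with KDR below the negative controls. Leukocyte markers, 4 of 5, ran from 347.6 to 1836 and 611.9 to 1139, with PTPRC below them, and red cell markers, 3 of 3, from 927.9 to 1209 and 983.9 to 1163. The nerve markers MBP and S100B, 2 of 3, summed to 976.4 to 1611 and 539.8 to 1105, and their log2 sum had r = -0.83 with BAG3. The part of tissue composition in the BAG3 and HSPB8 differences was not tested.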

How the data were processed

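The authors deposited 1 linear intensity per probe set and array. The submitters' processing notes name GCOS 1.3, while how probes were summarised and which genome build the design used is not stated there. The deposited intensity had a mean of 500.1 to 500.2 per array without the highest and lowest 2%, so arrays had been scaled and changes are relative. No 2 arrays were identical. Gene symbols came from GEO's platform annotation, which can be old: 10099 probe sets had 1 symbol, 198 several and 13826 none here. Of the 10099, 9989 were found by gene number in the Sscrofa11.1 table, and 0 symbols changed.

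Values were taken as log2(signal + 32), which understates low signals' changes. All 124 controls and the dimmest 40% of the others were left out (limit near 98.6), leaving 14399. One limma fit covered them all (version 3.58.1, under R 4.3.3; eBayes with trend, no covariates), adjusted by Benjamini-Hochberg, and the fit was tested on simulated data. The labels call the arrays biological replicates; the number of arrays limits precision (median SE 0.283). The brightest probe set stood for a gene.

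Members, lists and the rule for named genes were chosen with earlier results of these data known. The rule named all members, up to 4 genes of lowest p per list, and the 5 genes of highest r with BAG3 and with HSPB8, as measured and within breeds. Alternatives were other pseudocounts, filters and normalisations, blocks, probe sets and left-out arrays. Replicate numbers are shared by the breeds, but deviations of same-numbered arrays correlated at -0.04, 0.31, 0.10 and 0.05, so the numbers were not taken as pairs.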

Additional observations from a re-analysis of the deposited data

How the results depend on the processing

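The breed differences of BAG3, HSPB8 and CRYAB kept their sign under all alternatives run (18, 17 and 18), HSPB6 under 17 of 18 and HSPB1 under 13 of 17, and each of these values moved by less than the spread between animals. For CRYAB the alternatives include the mean with the probe set of uncertain target (-0.16). When single arrays were left out the differences ranged from -1.79 to -1.07 for BAG3, -0.91 to -0.44 for HSPB8, -0.39 to 0.29 for HSPB1, -0.36 to 0.17 for HSPB6 and -0.64 to -0.13 for CRYAB. The correlation of BAG3 with HSPB8 was positive under all 19 alternatives run. It was 0.92 with the replicate block, 0.85 with the means of the bright and dim arrays subtracted and 0.83 without the wide-gap arrays. These values still hold the breed difference of both genes. With breed means subtracted the correlation was 0.45. The causes were not tested. With the replicate block 1 of 14399 probe sets passed, that of NR4A3, which is no member (log2 difference -2.79, limma adjusted p = 0.0094), against 0 under the other 19 alternatives. Same-numbered arrays did not deviate together in every pair, so the block is no paired design. HSPB1, HSPB6 and CRYAB differences were smaller than their standard errors, so 4 arrays per breed could not settle them. The second HSPB6 probe set was near the background on 1 array.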
